A study of Homo sapiens with 12 samples.

Results

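The genes described here are 10 targets of the transcription factor ATF4 in the amino acid response: SLC3A2, SLC7A5, SLC7A11, CHAC1, SESN2, ASNS, PSAT1, PHGDH, TRIB3 and DDIT4. They were named by symbol as amino acid transport and synthesis genes of the integrated stress response, and all 10 were found among the 55765 gene names of the RNA-seq table and passed the count filter that left 18843 genes for testing. RNA-seq was made from HEK293T cells, a line derived from human embryonic kidney and expressing the SV40 large T antigen, after siRNA against ERI2 (3 libraries) or after a control siRNA (3 libraries). ERI2 belongs to a family of exonucleases, and the comparison asks which transcripts differ after ERI2 siRNA. Both groups received 50 nM siRNA with a lipid reagent, a second transfection 48 hours after the first, and a harvest 72 hours after the second. HEK293, the parental line, is named in the growth protocol, and the treatment protocol also names siRNAs against ERI-1 and a harvest for microarrays. Each group rests on 1 cell line and 1 siRNA condition with no rescue, so effects of the siRNA other than loss of ERI2 cannot be told apart from it. No label calls the replicates separate cultures. The p-values therefore reflect spread among libraries, part or all of which may be technical.

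When amino acids run short or proteins misfold, kinases phosphorylate the translation factor eIF2, most protein synthesis slows, and ATF4 mRNA is translated more. ATF4 then raises genes that import or make amino acids, that charge tRNAs, and that hold back the growth kinase mTORC1, together with genes that feed back on the response itself. ATF4 is regulated largely at translation, which mRNA counts do not read, so its targets are commonly followed in its place. Many of them carry a composite element bound by ATF4 with a C/EBP partner.

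The promoters of 3 of these genes are shown because a script found the ATF4 and C/EBP composite letters in them, searched as TGATGNAA on either strand (TTNCATCA on the gene strand when the element lies on the other). The windows ran from 250 bases before to 50 after each RefSeq start (build GRCh38.p14), and 9 of the 10 genes matched 14 windows. SLC7A11 had no entry. Of the 14 windows 3 held the letters, in ASNS, CHAC1 and SLC3A2, and 3.62% of all 35116 windows did. Capitals mark the match, 5′ to 3′ on the gene strand, in the 250 bases before the start for ASNS and CHAC1 and in 24 bases after it for SLC3A2.
ASNS, chr7:97872409-97872658, minus strand: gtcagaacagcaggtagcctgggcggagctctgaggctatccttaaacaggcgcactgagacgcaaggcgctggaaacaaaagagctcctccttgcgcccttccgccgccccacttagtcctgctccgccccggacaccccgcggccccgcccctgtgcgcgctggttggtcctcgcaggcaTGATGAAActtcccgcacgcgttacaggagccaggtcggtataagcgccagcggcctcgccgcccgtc
CHAC1, chr15:40953221-40953470, plus strand: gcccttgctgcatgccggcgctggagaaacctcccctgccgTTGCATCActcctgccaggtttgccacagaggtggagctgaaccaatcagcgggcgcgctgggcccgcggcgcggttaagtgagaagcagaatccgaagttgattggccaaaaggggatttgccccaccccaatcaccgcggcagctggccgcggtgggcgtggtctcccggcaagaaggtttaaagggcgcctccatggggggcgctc
SLC3A2, chr11:62881725-62881748, plus strand: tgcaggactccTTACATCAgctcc
The match lay 68 to 61 bases before the start in ASNS, 209 to 202 bases before it in CHAC1, and at bases 38 to 45 after it in 1 of the 3 SLC3A2 windows. A match of letters is a description of the window and not evidence of binding, and these coordinates are of a later build than the hg19 of the counts.

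The 6 libraries held from 29.1 to 38.3 (in units of 1e+06 counts). ERI2 mRNA had 34.6, 35.8 and 32.5 CPM (counts per 1e+06 counts, TMM-scaled) in the ERI2 siRNA libraries, against 54.4, 58.2 and 54.4 CPM in the control siRNA libraries (log2 fold change -0.70, SE 0.076; adjusted p = 0.000683 by the quasi-likelihood test of edgeR). Across all tested genes 4.29% were higher and 4.25% lower at an adjusted p under 0.05, and under total library size 67.8% of the called genes were higher, against 50.3% under TMM. Replicates of a group differed by more than counting noise, at chi-square values per degree of freedom from 4.66 to 22.7, and in each group replicate 1 lay farthest from the others. With replicates 2 and 3 alone, 13.9% of tested genes were higher and 14.1% lower. Values with and without the replicate 1 libraries are therefore given below. Of 6 markers of the HEK293 line 2, NEFL and INA, were lower, while PAX2 went the other way (log2 fold change 0.44, edgeR adjusted p = 0.454). With replicates 2 and 3 alone 4 of the 6 were lower and PAX2 was higher (edgeR adjusted p = 0.0416). The summed level of the list was 55.3 to 65.6 CPM in ERI2 siRNA libraries and 72.3 to 86.3 CPM in control siRNA libraries. Markers of keratinocytes summed to 8.82 to 9.06 CPM against 16.2 to 19.9 CPM in the same order, with 2 of 2 tested lower (ANXA1 and CDH1) and KRT5 and TP63 at 0 counts. Those of fibroblasts summed to 13.5 to 17.9 against 15.8 to 18.7 CPM, with 1 of 3 tested, COL3A1, lower and THY1 at 0 counts. COL1A1 went the other way (log2 fold change 0.31, edgeR adjusted p = 0.152) and passed as higher with replicates 2 and 3 alone (edgeR adjusted p = 0.0251). Markers of blood cells summed to 0.858 to 1.19 against 0.853 to 1.60 CPM, with CD3E at 0 counts. The part of these markers in the results below was not tested, and in bulk RNA fewer cells of a type and less RNA per cell cannot be told apart.

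After ERI2 siRNA 5 of the 10 genes were higher and 0 lower, where 4.29% of all tested genes were higher, 4.25% lower and 8.54% either. The 5 were SLC3A2, SLC7A5, SLC7A11, CHAC1 and SESN2, with rises from 1.18-fold to 1.48-fold. By DESeq2, by limma-voom and at an unadjusted p under 0.05 in edgeR, 0 of the 10 were lower. All 10 log2 fold changes were positive, from 0.03 to 0.57, with a median of 0.23 beside a median of 0.003 over all genes tested. For 6 of the 10 every ERI2 siRNA library exceeded every control siRNA library, as for 14.1% of all genes. With replicates 2 and 3 alone 4 of the 10 were higher and 0 lower, where 13.9% of all genes were higher and 14.1% lower. The median log2 fold change of the 10 was then 0.14, and PSAT1, PHGDH and DDIT4 were below 0.

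**Figure D1:**
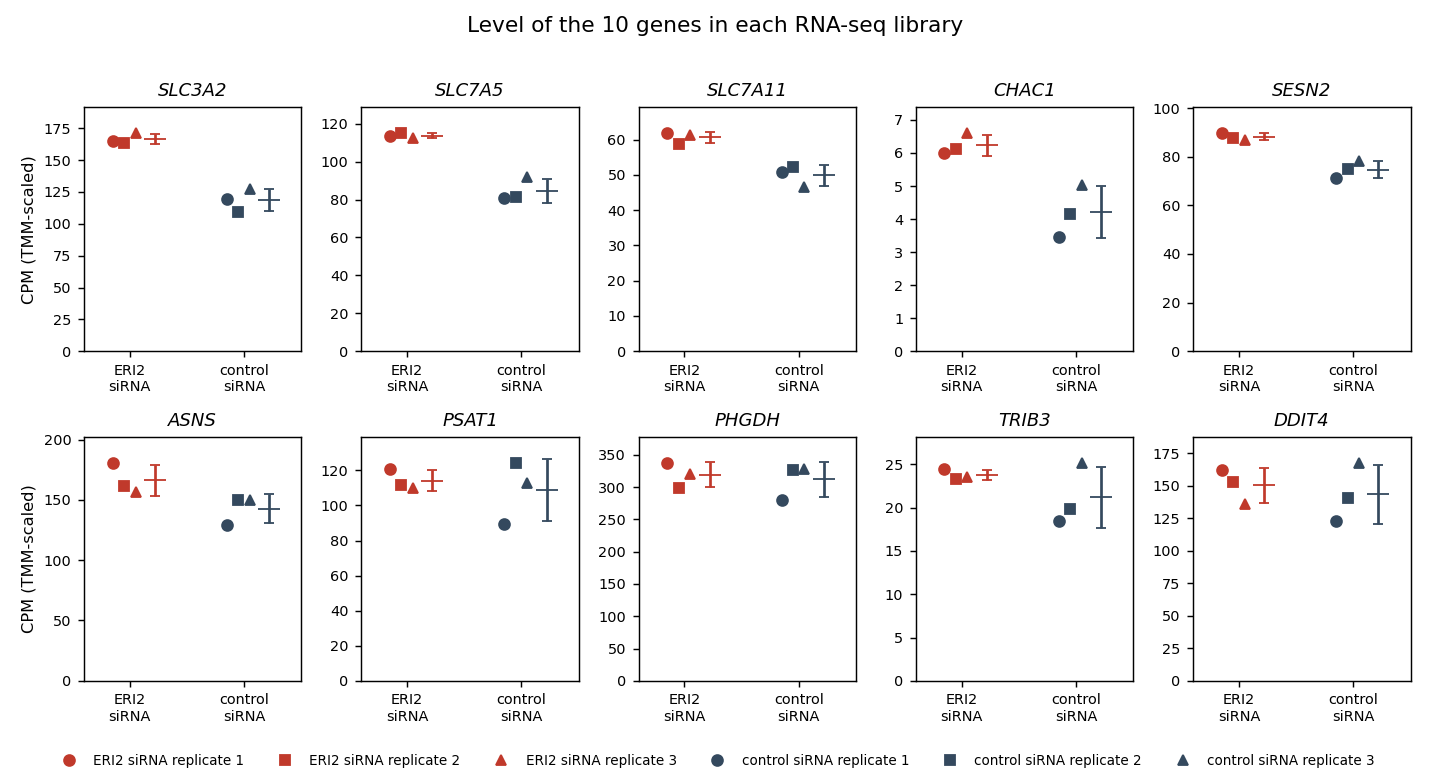
CPM (TMM-scaled, axes from 0) of each of the 10 genes in the 3 ERI2 siRNA libraries (red, left) and the 3 control siRNA libraries (dark, right); symbols give the replicate number, and bars the mean and SD. In the upper row every ERI2 siRNA library lies above every control siRNA library; in the lower row this holds for ASNS, while PSAT1, PHGDH, TRIB3 and DDIT4 overlap, with control siRNA replicate 1 the lowest of the 6 in each.

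SLC3A2 and SLC7A5 had the smallest p-values of the 10. SLC3A2 encodes the heavy chain 4F2hc (CD98), which brings several light chain transporters to the cell surface. Its level was 165, 164 and 171 CPM in the ERI2 siRNA libraries, against 119, 110 and 127 CPM in the control siRNA libraries. The lowest ERI2 siRNA library thus stood above the highest control siRNA library. SLC3A2 rose 1.40-fold (log2 fold change 0.49, SE 0.073, edgeR adjusted p = 0.00311), and it ranked 59 of 18843 genes by p. The log2 fold change was 0.50 with replicates 2 and 3 alone and 0.43 to 0.53 when single libraries were left out, with adjusted p from 0.00131 to 0.0167 in edgeR's test.

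SLC7A5 encodes LAT1, the light chain that pairs with 4F2hc to bring in leucine and other large neutral amino acids. It had 114, 115 and 112 CPM in the ERI2 siRNA libraries, against 80.6, 81.3 and 91.9 CPM in the control siRNA libraries. The ERI2 siRNA values lay close together, and control siRNA replicate 3 was the highest of its group. SLC7A5 rose 1.34-fold (log2 fold change 0.43, SE 0.072, edgeR adjusted p = 0.00528) and gave 0.39 with replicates 2 and 3 alone. SLC3A2 and SLC7A5 kept their calls in all 16 alternatives run. The pseudogene SLC7A5P1, looked up because near copies can share reads and named after its values were seen, had 79, 107 and 117 counts in ERI2 siRNA libraries and 51, 36 and 49 counts in control siRNA libraries. It rose too (log2 fold change 1.22, edgeR adjusted p = 0.0116; adjusted p = 0.0561 without ERI2 siRNA replicate 3). SLC7A5 itself had 3586, 3874 and 3404 counts in ERI2 siRNA libraries and 2835, 3008 and 2637 in control siRNA libraries, so the pseudogene held far fewer reads than the gene.

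SLC7A11 encodes xCT, a light chain that also pairs with 4F2hc and exchanges glutamate for cystine, the source of cysteine for glutathione. It had 61.8, 58.9 and 61.2 CPM in the ERI2 siRNA libraries, against 50.8, 52.3 and 46.4 CPM in the control siRNA libraries. The groups did not overlap, and the closest pair of libraries across them differed by less than for SLC3A2 or SLC7A5. SLC7A11 rose 1.22-fold (log2 fold change 0.28, SE 0.074, edgeR adjusted p = 0.0329), with 0.28 from replicates 2 and 3 alone (edgeR adjusted p = 0.0187). The call held without control siRNA replicate 1 (edgeR adjusted p = 0.0371). It was lost without ERI2 siRNA replicate 1, 2 or 3 (edgeR adjusted p of 0.0548, 0.0951 and 0.125) and without control siRNA replicate 2 or 3 (0.0524 and 0.173).

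CHAC1 encodes a cytosolic enzyme that breaks down glutathione and is among the genes induced by ATF4 under stress. It was the least counted of the 10, with 189, 206 and 200 counts (5.99, 6.11 and 6.60 CPM) in ERI2 siRNA libraries, against 122, 154 and 144 counts (3.47, 4.16 and 5.02 CPM) in control siRNA libraries. All ERI2 siRNA values lay above all control siRNA values, and the control siRNA libraries were the more spread. CHAC1 rose 1.48-fold, with a log2 fold change of 0.57 and a 95% interval from 0.23 to 0.91 (edgeR adjusted p = 0.0405). Replicates 2 and 3 alone gave 0.47 (edgeR adjusted p = 0.0390). The call was lost without ERI2 siRNA replicate 2 or 3 (edgeR adjusted p of 0.116 and 0.152) and without control siRNA replicate 1 or 2 (0.0838 and 0.109).

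SESN2 encodes sestrin 2, a leucine sensor that restrains mTORC1 and is also a target of p53. It had 89.7, 87.9 and 86.8 CPM in the ERI2 siRNA libraries, against 71.1, 75.1 and 78.0 CPM in the control siRNA libraries. The groups did not overlap, by a margin that was small beside the level. SESN2 rose 1.18-fold (log2 fold change 0.24, SE 0.068, edgeR adjusted p = 0.0448), and this call was the least stable of the 5. It was lost when any 1 of the 6 libraries was left out (ERI2 siRNA replicates 1, 2 and 3 gave edgeR adjusted p of 0.0781, 0.151 and 0.132, control siRNA replicates 1, 2 and 3 gave 0.0900, 0.110 and 0.117). It was also lost with replicates 2 and 3 alone (log2 fold change 0.19, edgeR adjusted p = 0.0589) and with no count filter (edgeR adjusted p = 0.0801).

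The 3 synthesis genes did not pass the test. ASNS encodes asparagine synthetase, which makes asparagine from aspartate and glutamine and is a classic target of the amino acid response. It had 181, 162 and 157 CPM in the ERI2 siRNA libraries, against 129, 150 and 150 CPM in the control siRNA libraries. The groups did not overlap, but the gap between ERI2 siRNA replicate 3 and control siRNA replicate 3 was 157 against 150 CPM. The log2 fold change was 0.22 with a 95% interval from 0.04 to 0.40 (edgeR adjusted p = 0.105), and 0.08 with replicates 2 and 3 alone (edgeR adjusted p = 0.360). ASNS passed under total library size (0.28, edgeR adjusted p = 0.0246) and upper quartile scaling (0.25, edgeR adjusted p = 0.0479).

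PHGDH and PSAT1 encode the first and second enzymes of serine synthesis from a glycolytic intermediate. PHGDH had 338, 299 and 320 CPM in the ERI2 siRNA libraries, against 281, 326 and 329 CPM in the control siRNA libraries. Both groups spanned much the same range, with control siRNA replicate 1 lowest and ERI2 siRNA replicate 1 highest. PSAT1 had 121, 111 and 110 CPM in the ERI2 siRNA libraries, against 89.5, 124 and 113 CPM in the control siRNA libraries. Here too control siRNA replicate 1 was the lowest library, and control siRNA replicate 2 the highest. The log2 fold change of PHGDH was 0.03 (95% interval -0.15 to 0.22; edgeR adjusted p = 0.845) and turned to -0.086 with replicates 2 and 3 alone. That of PSAT1 was 0.07 (95% interval -0.15 to 0.28; edgeR adjusted p = 0.714) and turned to -0.11 with replicates 2 and 3 alone. The upper bounds of both intervals lay below the estimate of 0.49 for SLC3A2.

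TRIB3 encodes a pseudokinase that binds ATF4 and dampens its activity, and DDIT4 encodes REDD1, an mTORC1 inhibitor that hypoxia and glucocorticoids also induce. TRIB3 had 24.5, 23.3 and 23.6 CPM in the ERI2 siRNA libraries, against 18.5, 19.9 and 25.2 CPM in the control siRNA libraries. The ERI2 siRNA values clustered while the control siRNA values spread to either side of them. DDIT4 had 162, 153 and 136 CPM in the ERI2 siRNA libraries, against 123, 140 and 168 CPM in the control siRNA libraries, so the groups overlapped across most of their range. The log2 fold change was 0.17 for TRIB3 (95% interval -0.06 to 0.40; edgeR adjusted p = 0.341) and 0.07 for DDIT4 (95% interval -0.15 to 0.29; edgeR adjusted p = 0.722). In replicates 2 and 3 alone these became 0.056 and -0.096.

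**Figure D2:**
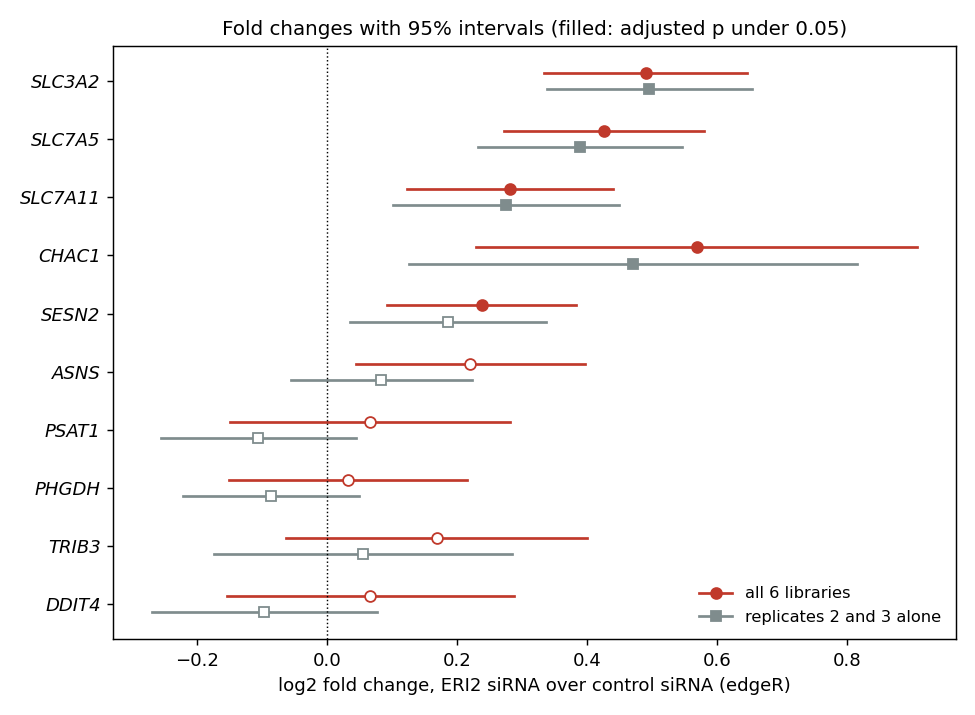
Fitted log2 fold change (ERI2 siRNA over control siRNA, horizontal axis) of each gene with its 95% interval, from all 6 libraries (red circles) and from replicates 2 and 3 alone (grey squares); filled symbols have an adjusted p under 0.05 in edgeR's test. The estimates for SLC3A2, SLC7A5, SLC7A11 and CHAC1 stay above 0 in both fits, while PSAT1, PHGDH and DDIT4 move from just above to just below 0.

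The library named control siRNA replicate 1 was the lowest of the 6 for 8 of the 10 genes, SLC3A2 and SLC7A11 being the exceptions, while it was the lowest for 14.3% of all tested genes. ERI2 siRNA replicate 1 was the highest of the 6 for 4 of the 10 (SLC7A11, SESN2, ASNS and PHGDH), against 14.6% of all genes. The same libraries held the extremes of ATF4 mRNA. ATF4 had 660, 552 and 566 CPM in the ERI2 siRNA libraries, against 452, 553 and 549 CPM in the control siRNA libraries. Outside the replicate 1 libraries its TMM-scaled level thus stayed between 549 and 566 CPM in both groups. Scaled by total counts it had 651, 570 and 588 CPM in ERI2 siRNA libraries, against 461, 535 and 523 CPM in control siRNA libraries, without overlap. Under TMM ATF4 gave a log2 fold change of 0.19 (edgeR adjusted p = 0.250), and 0.02 with replicates 2 and 3 alone (edgeR adjusted p = 0.878). It did not pass in any of the 16 alternatives.

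The profile of ASNS over the libraries was the nearest to that of ATF4 among the 10, a comparison made after the values were seen. The root mean square difference of their centred log2 CPM was 0.041, followed by 0.089 for PSAT1, 0.093 for PHGDH and 0.096 for SESN2. The transporter genes lay farther off, at 0.14 for SLC7A11, 0.16 for SLC7A5 and 0.21 for SLC3A2, and CHAC1 was farthest at 0.24. These distances over 6 libraries are a description and carry no test.

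**Figure D3:**
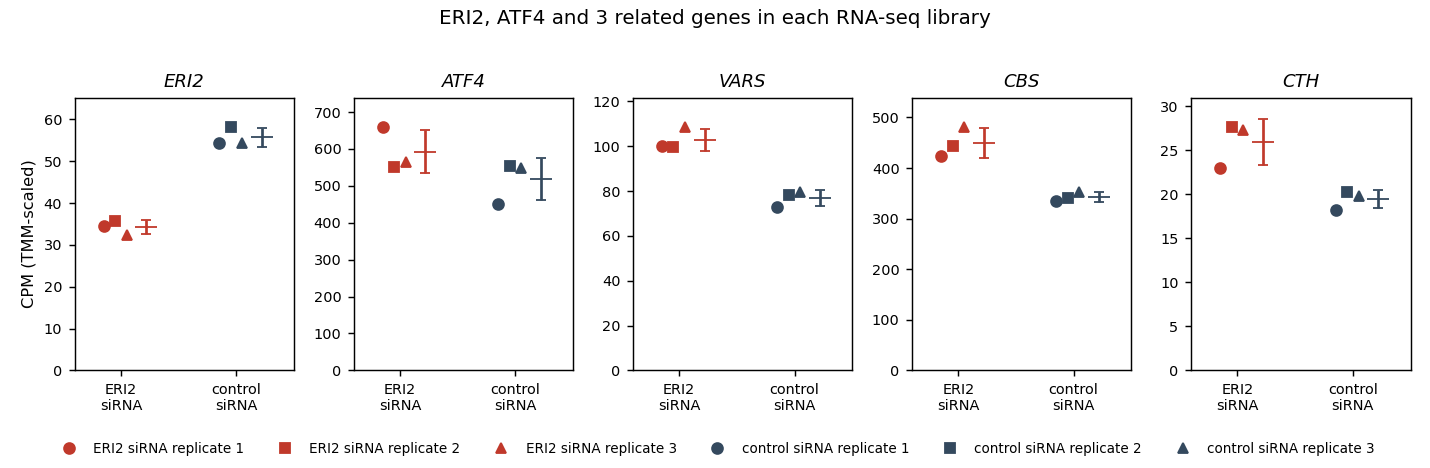
CPM (TMM-scaled, axes from 0) of ERI2, ATF4, VARS, CBS and CTH in the 3 ERI2 siRNA libraries (red, left) and the 3 control siRNA libraries (dark, right), with the mean and SD. ERI2 is lower and VARS, CBS and CTH are higher in all ERI2 siRNA libraries. At this scaling ATF4 separates only in the replicate 1 libraries, at 660 CPM for ERI2 siRNA and 452 CPM for control siRNA. By total counts its groups do not overlap.

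Ratios within a library do not depend on the scaling between libraries and were used to ask whether the members differed in response. SLC7A5 had 0.687, 0.702 and 0.657 counts per SLC3A2 count in ERI2 siRNA libraries, against 0.675, 0.742 and 0.722 in control siRNA libraries. Light and heavy chain mRNA thus kept overlapping ratios (log2 difference -0.06, two-sided exact permutation test, p = 0.3). SLC7A5 had 0.628, 0.710 and 0.717 counts per ASNS count in ERI2 siRNA libraries, against 0.626, 0.543 and 0.613 in control siRNA libraries. All ERI2 siRNA ratios were the higher, by a log2 difference of 0.21 (exact permutation p = 0.1, which is the smallest that 3 against 3 libraries allow). SLC3A2 over ASNS differed by 0.27 and CHAC1 over ASNS by 0.36 on the log2 scale (exact permutation p = 0.2 for each). After Benjamini-Hochberg adjustment over the 4 ratios, the exact permutation p-values were 0.3 for SLC7A5 over SLC3A2 and 0.267 for the other ratios. With 3 libraries a group this test could not reach 0.05, so it says nothing on whether the responses differed.

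Around ATF4, of 14 regulators of the integrated stress response 1 was lower and 0 higher in edgeR's test (3 lower and 1 higher at an unadjusted p under 0.05; 0 higher by DESeq2 and limma-voom), with a median log2 fold change of -0.01. In replicates 2 and 3 alone 4 of the 14 were lower (EIF2AK1, EIF2AK2, EIF2AK4 and EIF2S1) and 0 higher, beside 14.1% and 13.9% of all genes. The median of the 14 was then -0.06. The gene that fell over all 6 libraries was EIF2AK2, which encodes the RNA-activated eIF2 kinase PKR. It had 105, 112 and 101 CPM in ERI2 siRNA libraries, against 125, 138 and 122 CPM in control siRNA libraries, without overlap. Its log2 fold change was -0.27 (edgeR adjusted p = 0.0372), and it no longer passed under total library size (edgeR adjusted p = 0.0830). Nor did it pass without ERI2 siRNA replicate 2 or 3 (0.0798 and 0.157) or control siRNA replicate 2 or 3 (0.141 and 0.0733). DDIT3, which encodes the stress factor CHOP, had 11.4, 10.7 and 10.6 CPM in ERI2 siRNA libraries, against 11.5, 9.21 and 11.5 CPM in control siRNA libraries. The groups overlapped (log2 fold change 0.03, 95% interval -0.23 to 0.28; edgeR adjusted p = 0.917), and the sign turned to -0.02 without ERI2 siRNA replicate 1 and to -0.08 without control siRNA replicate 2.

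The enzymes that charge tRNAs, which ATF4 also raises, held 1 rise and 0 falls among 20 cytosolic aminoacyl-tRNA synthetases (1 fall at an unadjusted p under 0.05; 0 by DESeq2 and limma-voom), with a median of 0.03. VARS, the valyl-tRNA synthetase, had 100, 99.8 and 109 CPM in ERI2 siRNA libraries, against 72.7, 78.1 and 79.4 CPM in control siRNA libraries. The groups were well apart, and VARS rose 1.34-fold (log2 fold change 0.42, SE 0.071, edgeR adjusted p = 0.00527), close to the size seen for SLC7A5. It kept its call in all 16 alternatives. CARS, the cysteinyl-tRNA synthetase, just missed the threshold, with groups that did not overlap (log2 fold change 0.23, edgeR adjusted p = 0.0531). It passed as higher with replicates 2 and 3 alone (edgeR adjusted p = 0.0251). The list held 2 rises and 4 falls in replicates 2 and 3 alone, where 13.9% of all genes were higher and 14.1% lower. Its median turned to -0.079 there.

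Of 16 other amino acid transporters tested, of 19 listed, 1 was higher and 0 lower, beside 4.29% and 4.25% of all genes. DESeq2 called 1 lower and limma-voom 0, and 1 was lower unadjusted at 0.05 in edgeR. The median was -0.0006. In replicates 2 and 3 alone 2 were higher and 1 lower, beside 13.9% and 14.1% of all genes. SLC1A5, which encodes the glutamine transporter ASCT2, had 180, 203 and 206 CPM in ERI2 siRNA libraries, against 158, 150 and 165 CPM in control siRNA libraries. It rose 1.25-fold (log2 fold change 0.32, edgeR adjusted p = 0.0207). The call was lost without ERI2 siRNA replicate 2 or 3 (edgeR adjusted p of 0.104 for each) and without control siRNA replicate 2 or 3 (0.0809 and 0.0697).

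In other amino acid and one-carbon synthesis 2 of 17 genes were higher and 0 lower, beside 4.29% and 4.25% of all genes. DESeq2 and limma-voom called 0 lower, 0 were lower unadjusted at 0.05 in edgeR, and the median was 0.03. DESeq2, upper quartile scaling and no count filter each gave 3 higher, and total library size gave 5. Both rises of the main fit belonged to the route that makes cysteine from homocysteine. CBS, cystathionine beta-synthase, had 423, 444 and 481 CPM in ERI2 siRNA libraries, against 335, 341 and 353 CPM in control siRNA libraries. CTH, cystathionine gamma-lyase, had 22.9, 27.7 and 27.3 CPM in ERI2 siRNA libraries, against 18.3, 20.3 and 19.8 CPM in control siRNA libraries. Neither gene's groups overlapped, and the log2 fold changes were 0.39 for CBS (edgeR adjusted p = 0.0122) and 0.42 for CTH (edgeR adjusted p = 0.0182). Without ERI2 siRNA replicate 2 or 3 or control siRNA replicate 3 the adjusted p in edgeR's test was 0.0551, 0.0725 and 0.0605 for CBS and 0.0975, 0.0900 and 0.0720 for CTH. The list held 2 rises, again CBS and CTH, and 4 falls in replicates 2 and 3 alone, where 13.9% of all genes were higher and 14.1% lower. Over all 6 libraries PYCR1, SHMT2 and MTHFD1L were also higher without overlap between the groups, but did not pass. Their log2 fold changes were 0.26, 0.16 and 0.18 (edgeR adjusted p of 0.0684, 0.160 and 0.129).

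Since SLC7A11 and CHAC1 supply and consume glutathione, its other genes and the targets of the oxidative stress factor NRF2 were read beside them. Of 7 glutathione genes tested 0 passed in edgeR, where 8.54% of all genes did. DESeq2 and limma-voom called 0, 0 passed unadjusted at 0.05 in edgeR, and the median was -0.08. GSR, glutathione reductase, had the smallest p of the list, at 92.5, 81.3 and 71.8 CPM in ERI2 siRNA libraries and 79.9, 107 and 99.4 CPM in control siRNA libraries (log2 fold change -0.22, edgeR adjusted p = 0.210). GSR passed as lower without ERI2 siRNA replicate 1 or control siRNA replicate 1 (edgeR adjusted p of 0.0451 and 0.0347). With replicates 2 and 3 alone 5 of the 7 glutathione genes were lower, beside 14.1% of all genes, and the median was -0.29. Of 10 NRF2 targets tested, SLC7A11 was the 1 rise, and HMOX1, heme oxygenase 1, the 1 fall, beside 4.29% and 4.25% of all genes. In replicates 2 and 3 alone 1 was higher and 4 were lower (HMOX1, TXNRD1, ME1 and GCLM, the last also in the glutathione list), beside 13.9% and 14.1% of all genes. The median of the NRF2 targets was then -0.18, against -0.06 over all 6 libraries. HMOX1 had 7.13, 5.94 and 5.91 CPM in ERI2 siRNA libraries, against 7.93, 8.70 and 10.1 CPM in control siRNA libraries (log2 fold change -0.49, edgeR adjusted p = 0.0406). Its call ended under total library size (edgeR adjusted p = 0.0650) and without ERI2 siRNA replicate 2 or 3 (0.155 for each) or control siRNA replicate 2 or 3 (0.0914 and 0.150).

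SESN2 and DDIT4 act on mTORC1, and the genes of its amino acid sensing were read beside them. Of 27 tested 1 was higher, 3 were lower and 23 did not pass, where 4.29% of all genes were higher and 4.25% lower. The median was -0.01. In replicates 2 and 3 alone 4 were higher and 7 lower, beside 13.9% and 14.1% of all genes, and the median was -0.09. FLCN, folliculin, which acts on the Rag GTPases that recruit mTORC1, rose, with 43.1, 49.4 and 49.3 CPM in ERI2 siRNA libraries, against 38.3, 34.3 and 39.9 CPM in control siRNA libraries (log2 fold change 0.33, edgeR adjusted p = 0.0305). The falls were the Rag GTPase genes RRAGA (-0.35, edgeR adjusted p = 0.0234) and RRAGC (-0.37, 0.0463) and LAMTOR5 (-0.38, 0.0425), which encodes a subunit of the complex that anchors the Rags to lysosomes. RRAGA had 48.7, 44.2 and 41.9 CPM in ERI2 siRNA libraries, against 52.3, 61.4 and 58.2 CPM in control siRNA libraries, without overlap. With replicates 2 and 3 alone RRAGA (-0.48, edgeR adjusted p = 0.000401), LAMTOR5 (-0.52, 0.00169) and FLCN (0.41, 0.00258) passed. These 4 calls were fragile when single libraries were left out. Without ERI2 siRNA replicate 2 or 3 or control siRNA replicate 2 the adjusted p in edgeR's test was 0.119 to 0.133 for FLCN, 0.0907 to 0.116 for RRAGA, 0.152 to 0.173 for LAMTOR5 and 0.0823 to 0.180 for RRAGC. Calls over all genes fell too in these fits, from 809 higher to 227, 176 and 299. Lower calls went from 800 to 213, 195 and 425 in the same order. Without control siRNA replicate 3 it was 0.0699 for FLCN, 0.0897 for RRAGA and 0.0626 for LAMTOR5, and RRAGC did not pass without control siRNA replicate 1 (0.102). Under total library size LAMTOR5 (edgeR adjusted p = 0.0657) and RRAGC (0.113) did not pass, and RRAGC also missed under limma-voom (0.0530), upper quartile scaling (0.0686), a filter of at least 1 CPM in 3 libraries (0.0506) and replicates 2 and 3 alone (0.0777).

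A further list held ATF4 targets outside the groups above. Of 8 tested, of 9 listed, 0 were higher (1 at an unadjusted p under 0.05 in edgeR, 0 by DESeq2 and limma-voom) and 1 lower. All tested genes stood at 4.29% higher and 4.25% lower, and the median of the list was 0.06. The fall was KLHL24, which encodes a ubiquitin ligase adaptor, with 38.2, 37.4 and 34.3 CPM in ERI2 siRNA libraries, against 47.3, 51.1 and 51.2 CPM in control siRNA libraries. The groups were well apart (log2 fold change -0.44, edgeR adjusted p = 0.00670), and the call held when each library was left out in turn. Replicates 2 and 3 alone also gave 0 higher and 1 lower, beside 13.9% and 14.1% of all genes.

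**Figure D4:**
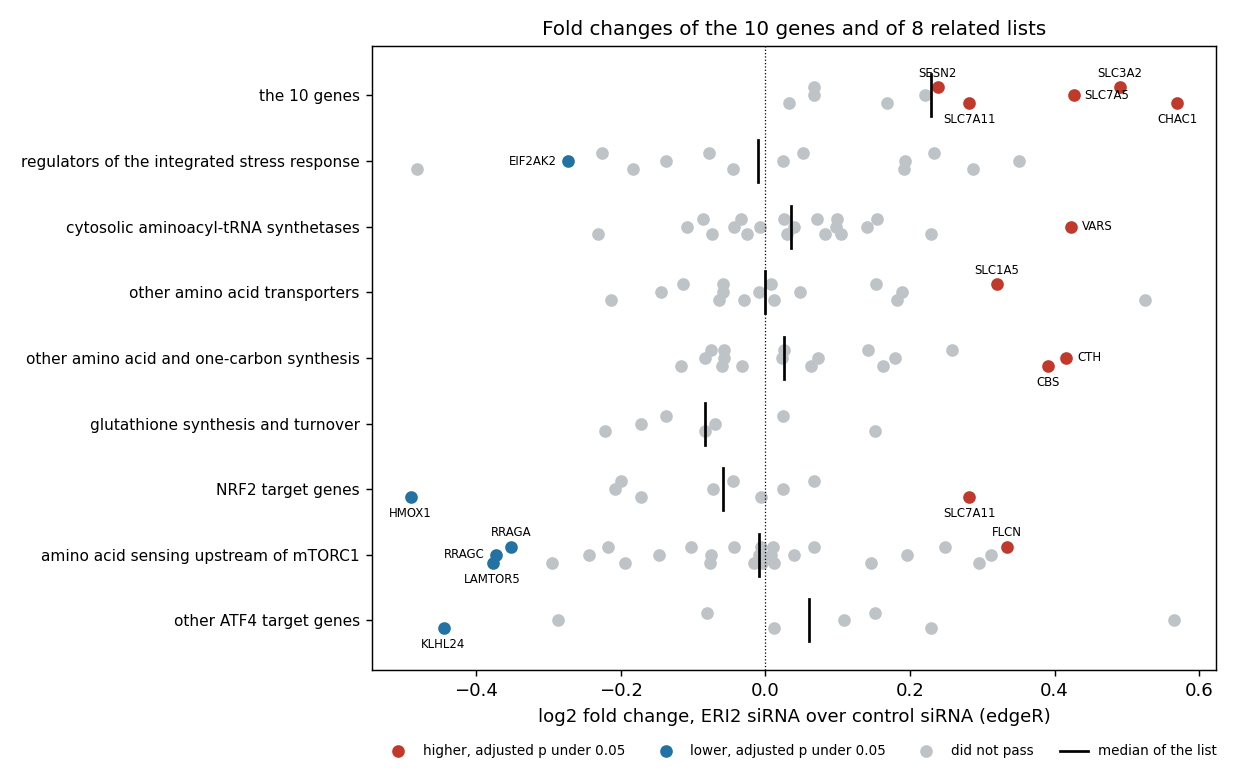
Fitted log2 fold change (ERI2 siRNA over control siRNA, horizontal axis) of each tested gene in the 10 genes and in 8 related lists; red and blue points passed edgeR's test as higher and lower, grey points did not, and black bars are medians. The median of the 10 genes is 0.23, while those of the 8 lists lie between -0.08 and 0.06.

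The 4 genes outside the list whose levels followed the mean profile of SLC3A2 and SLC7A5 most closely, among 10306 genes with a mean of at least 10 CPM, were DCAF15, NSMF, C11orf83 and CACTIN. Their root mean square differences from that profile in centred log2 CPM over 6 libraries ran from 0.023 to 0.044, beside 0.12 to 0.25 for the rest of the 10. SLC3A2 and SLC7A5 lay at 0.029 each, which is small by construction because the profile is their own mean. The 4 genes were picked for this likeness, so their fold changes follow from the choice and are no separate evidence. DCAF15, a substrate receptor of a ubiquitin ligase, averaged 36.7 ± 0.446 CPM in ERI2 siRNA libraries and 27.4 ± 2.19 CPM in control siRNA libraries (SD, n = 3 each; log2 fold change 0.42). CACTIN, a splicing factor, averaged 31.7 ± 1.28 CPM and 23.2 ± 2.39 CPM in the same order (log2 fold change 0.45). NSMF and C11orf83 gave log2 fold changes of 0.43 and 0.51. Without ERI2 siRNA replicate 3 CACTIN missed the threshold (edgeR adjusted p = 0.0546).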

How the data were processed

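The authors deposited raw read counts per gene name in 1 table, whole numbers with different totals per library, and each of its 6 columns matched 1 sample by title. The tools named are TopHat2 2.0.10, CASAVA 1.8.2 and HTSeq 0.6.1p1, per the submitters' processing notes, which also list hg19 but state no roles. Neither the strand setting nor the annotation is stated (not given in the sources used here), so reads of overlapping antisense genes or near copies may be counted together. Levels are not compared between genes, since no transcript lengths of this annotation were used. The miRNA table was not used.

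After filterByExpr and TMM scaling, counts went into a robust quasi-likelihood fit by group (edgeR 4.0.16, R 4.3.3), with Benjamini-Hochberg adjustment over all 18843 genes and a threshold of 0.05. Intervals are 95%, and n = 3 libraries per group throughout. Centred profiles used log2 CPM with a prior count of 2. Named genes were the 10, ERI2, ATF4 and DDIT3, the genes past the test in 8 lists (up to 4 by p, or the smallest p) and the 4 nearest profiles. The genes and lists were chosen with earlier results of these data known, so their counts are no independent evidence. The related genes ERI1 and ERI3 missed the threshold (edgeR adjusted p of 0.112 and 0.706). The log2 fold change of ERI1 was -0.23 (95% interval -0.43 to -0.04). All ERI2 siRNA libraries lay below all control siRNA libraries for ERI1 in TMM-scaled CPM, but not by total counts. Alternatives were DESeq2 1.42.0, limma-voom (limma 3.58.1), RLE, total library size, upper quartile, no count filter, at least 1 CPM in 3 libraries, the replicate block, each library left out, replicates 2 and 3 alone and a threshold of 0.01. On simulated data of the ERI2 siRNA against control siRNA comparison (18843 genes, 200 changed), 60% of 1.5-fold and 81.5% of 2-fold changes were recovered, with 5 and 10 false calls. Each gene was drawn on its own there, with no deviation shared within a library, so the false calls need not carry over to these data. Both sizes exceed the largest rise of the 10, 1.48-fold for CHAC1, so recovery at the sizes seen was not measured.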

Additional observations from a re-analysis of the deposited data

How the results depend on the processing

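Of the 10 genes 5 were higher in the main analysis, and 4 to 6 under RLE, total library size, upper quartile, both filters, DESeq2, limma-voom and replicates 2 and 3 alone. The count was 2 with the replicate block and at an adjusted p under 0.01, and 2 to 3 without single libraries. The count of lower genes was 0 under all 16 alternatives. Over all genes, 809 higher and 800 lower became 105 and 98 with the replicate block, 139 and 145 at 0.01, 2622 and 2670 with replicates 2 and 3 alone, and 176 to 1424 and 195 to 1327 without single libraries. With no count filter 1290 were higher, and under total library size 463 were lower. With the block SLC3A2 (edgeR adjusted p = 0.0340) and SLC7A5 (0.0495) kept their calls, as did ERI2 and VARS, and SLC7A11 (0.135), CHAC1 (0.111), SESN2 (0.170), KLHL24 (0.0529), SLC7A5P1, the 4 nearest profiles and the other called genes of the 8 lists did not. The numbers were not shown to pair the libraries, since deviations of same-numbered libraries correlated at -0.30, -0.08 and -0.10 over genes, and no library correlated best with its own number. The sign turned with replicates 2 and 3 alone for PSAT1 (-0.11), PHGDH (-0.086) and DDIT4 (-0.096), and without single libraries values ran from -0.060 to 0.17, -0.041 to 0.076 and -0.038 to 0.18 for these genes and from -0.079 to 0.079 for DDIT3. The causes were not tested. At the least depth, 122 to 206 counts for CHAC1, the 95% interval was the widest of the 10.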
